A study of Mus musculus with 10 samples.

Results

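The genes described are the Fc receptors of mouse myeloid cells and the enzymes that act next to them. They are the IgG receptor genes *Fcgr1*, *Fcgr2b*, *Fcgr3* and *Fcgr4*, the shared signaling chain *Fcer1g*, the neonatal Fc receptor *Fcgrt*, the kinases *Syk* and *Lyn*, and *Ptpn6*, which encodes the phosphatase SHP-1. They were taken by gene name from a table of read counts in which each of the 9 names had 1 row, so that 9 of 55487 genes are described. Of these 55487 genes, 13740 had a read count scaled to library size (CPM) above 1 in at least 3 libraries and were tested, and the 9 genes were among them.

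The libraries came from 5 male C57BL/6 mice, called m2, m6, m234, m235 and m236, which the methods of the study place at 8 to 12 weeks of age. All 5 carried the Arg1tm1Lky allele, a reporter in which yellow fluorescent protein (YFP) is made under the control of *Arg1*, and all 5 were at the peak of experimental autoimmune encephalomyelitis (EAE), a model of multiple sclerosis induced by immunization with a myelin peptide. From the spinal cord of each animal, viable CD45+CX3CR1+ cells without CD3 and Ly6G were sorted into 200000 YFP+ (ARG1+) and 100000 YFP- (ARG1-) cells, and each sort gave 1 RNA-seq library. Both groups thus share the allele, the disease, the sex and the gate, they differ in reporter signal and in the number of cells, and the 5 libraries of one group are paired by animal with the 5 of the other. No library came from a healthy animal, and a gate on CX3CR1 can hold monocyte-derived cells, central nervous system-associated macrophages, dendritic cells and microglia together. *Arg1* itself averaged 814 CPM in the ARG1+ and 18.4 CPM in the ARG1- libraries.

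Fc gamma receptors bind the constant part of IgG and so let macrophages, monocytes and microglia take up or respond to antibody-coated targets. *Fcgr1*, *Fcgr3* and *Fcgr4* encode activating receptors, which depend on the small *Fcer1g* chain and its immunoreceptor tyrosine-based activation motif (ITAM). *Src* family kinases such as LYN phosphorylate the ITAM, SYK docks there and passes the signal on, whereas FCGR2B carries an inhibitory motif (ITIM) in its own tail and recruits phosphatases, of which SHP-1 is one that acts on ITIM receptors in general. FCGRT is a different kind of receptor, which protects IgG from breakdown inside cells and carries no such motif.

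The tyrosine codons below are where the opposing activating and inhibitory signals start, and they are shown because the counts below are counts of these 2 genes. Both coding stretches were read from GENCODE transcripts on GRCm38, 5′ to 3′, with the tyrosine codons of the motif in capitals. The *Fcer1g* stretch covers codons 62 to 82 of 86 and lies in 2 exons within chr1:171229880-171230081 on the reverse strand. The *Fcgr2b* stretch covers codons 314 to 325 of 340 and lies in 1 exon at chr1:170961062-170961097 on the reverse strand. The ITIM was in 4 of the 4 coding transcripts of *Fcgr2b* and the ITAM in 1 of the 2 of *Fcer1g*.
Fcer1g ITAM: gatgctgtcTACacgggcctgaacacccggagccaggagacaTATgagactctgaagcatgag
Fcgr2b ITIM: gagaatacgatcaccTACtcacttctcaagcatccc

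*Fcgr2b* and *Fcgr3* encode receptors with closely related extracellular parts, and this bears on how well their reads can be told apart. The longest identical run that their coding sequences share is 129 bases long. It is printed here with 30 bases added on each side, which gives 189 bases with 5 differences. Both copies span an intron, within chr1:170966644-170968111 for *Fcgr2b* and chr1:171054137-171057822 for *Fcgr3*, both on the reverse strand. The differing bases are in capitals.
Fcgr2b: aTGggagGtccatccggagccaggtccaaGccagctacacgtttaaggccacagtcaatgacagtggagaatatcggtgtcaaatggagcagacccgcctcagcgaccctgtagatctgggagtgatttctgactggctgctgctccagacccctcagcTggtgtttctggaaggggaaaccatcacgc
Fcgr3: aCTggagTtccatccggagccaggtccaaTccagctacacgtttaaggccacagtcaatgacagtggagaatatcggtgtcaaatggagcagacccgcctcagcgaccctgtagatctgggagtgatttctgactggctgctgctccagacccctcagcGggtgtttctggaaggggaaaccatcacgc
The reads were 50 bases long. Of all stretches of 50 bases in the transcripts of *Fcgr3*, 12.3% also occurred in *Fcgr2b*, and 4.48% of those of *Fcgr2b* occurred in *Fcgr3* (6.63% in any other gene), so that reads from these stretches cannot be assigned to one gene. No such stretch of *Fcgr1*, *Fcgr4*, *Fcer1g*, *Fcgrt*, *Syk* or *Ptpn6* occurred in another gene.

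Library totals ranged from 28870482 to 33826355 counts in ARG1+ cells and from 8396863 to 35455643 in ARG1- cells, where the lowest belonged to m234. At that depth the member with the fewest reads, *Fcgrt*, still had 252 counts. Of the genes of the sort gate, *Ptprc* was at 595 CPM or more in every library. *Cx3cr1* was at 43.9 to 233 CPM in ARG1+ and 102 to 565 CPM in ARG1- libraries. The myeloid genes *Itgam* and *Csf1r* were at 380 CPM or more. By the test described below, *Itgam* was called higher in ARG1+ cells, and with the animal as a block *Ptprc*, *Cx3cr1* and *Csf1r* were called lower. T cell markers summed to at most 3.34 CPM and NK cell markers to at most 2.93 CPM. The B cell gene *Ms4a1* reached at most 0.0715 CPM, but *Ighm* reached 41.4 CPM, and the B and plasma cell list summed to 5.91 to 17.8 CPM in ARG1+ and 32.4 to 68.7 CPM in ARG1- libraries. *Ly6g* of neutrophils, a gene of the gate, reached 0.129 CPM, while the neutrophil list summed to 301 to 453 CPM and 262 to 372 CPM, most of it from *Mmp8* and *Csf3r*. In addition, the mast cell and basophil genes *Fcer1a* and *Ms4a2* had no counts in any library. Levels below are CPM scaled with TMM library factors, given as mean ± SD over the 5 animals of a group. Fold changes are ARG1+ over ARG1- on the log2 scale, from edgeR's quasi-likelihood test with Benjamini-Hochberg adjustment over the 13740 genes, and a gene is called at a false discovery rate (FDR) below 0.05.

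Of the 9 genes, *Fcgr3* was higher in ARG1+ cells and *Lyn* and *Ptpn6* were lower, while the other 6 were not called. In all tested genes, 13.0% were called, 6.82% higher and 6.15% lower. None of the 9 was called with a change of more than 1 on the log2 scale, where 0.560% of all tested genes were higher and 0.888% lower (0.662% and 1.55% with the block described below). Their log2 fold changes ran from -0.37 to 0.24 with a median of 0.01, beside a median of -0.0022 over all tested genes. With the animal added to the model as a block, *Fcgr1* and *Fcgrt* were called lower as well, which gave 1 higher and 4 lower genes, where 35.1% of all tested genes were called, 16.8% higher and 18.3% lower. Since the samples are bulk RNA, fewer cells of a type and less RNA per cell cannot be told apart in any of these values.

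**Figure D1:**
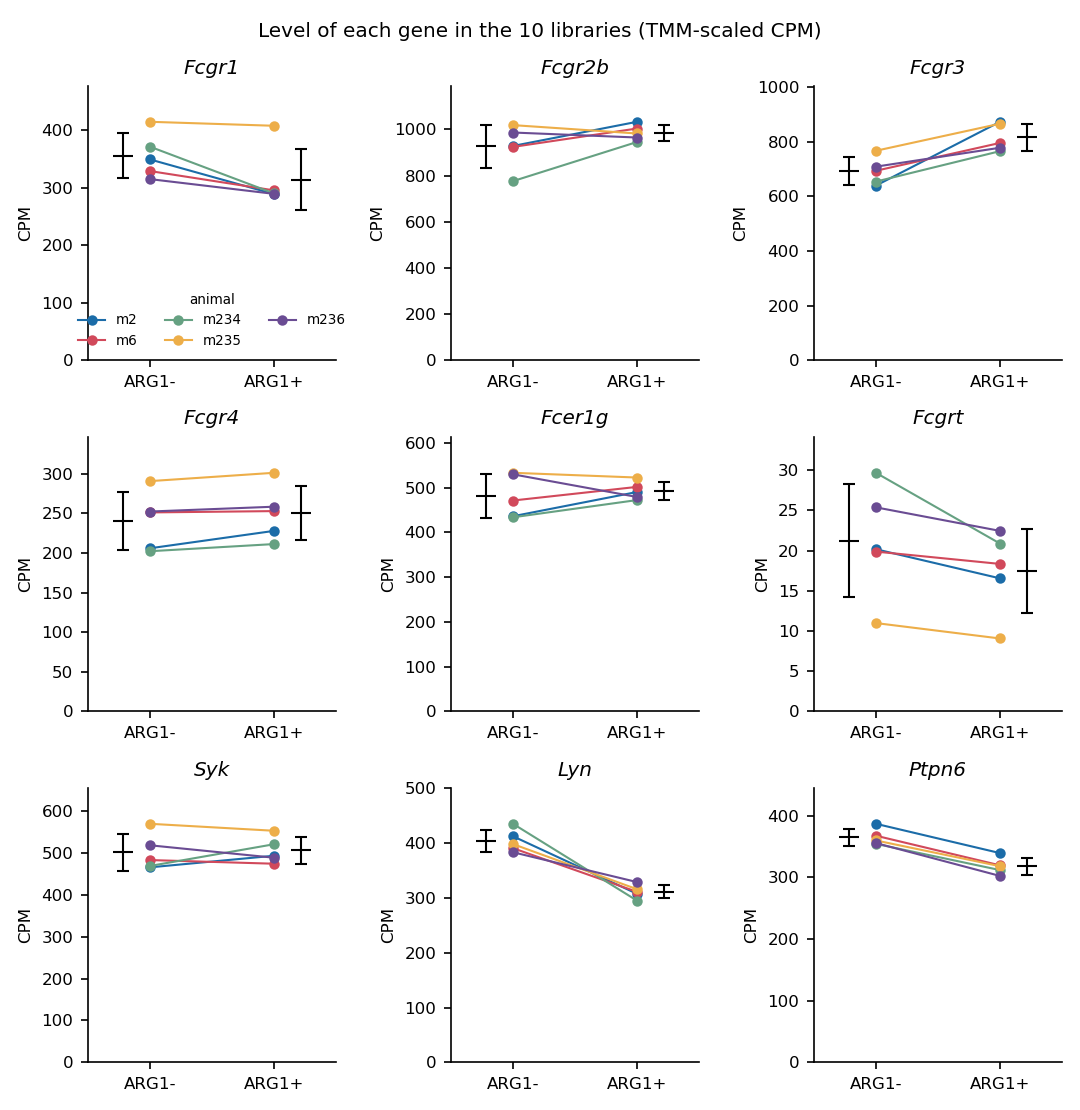
Level of each of the 9 genes in TMM-scaled CPM (y axis, from 0) in the ARG1- and ARG1+ libraries (x axis). Each colored line joins the 2 libraries of 1 animal and black bars give the mean ± SD of 5 libraries; the lines of *Lyn* and *Ptpn6* fall in all 5 animals without overlap of the groups, those of *Fcgr3* rise in all 5, and m235 is the highest animal in *Fcgr1* and *Fcgr4* and the lowest in *Fcgrt* in both groups.

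**Figure D2:**
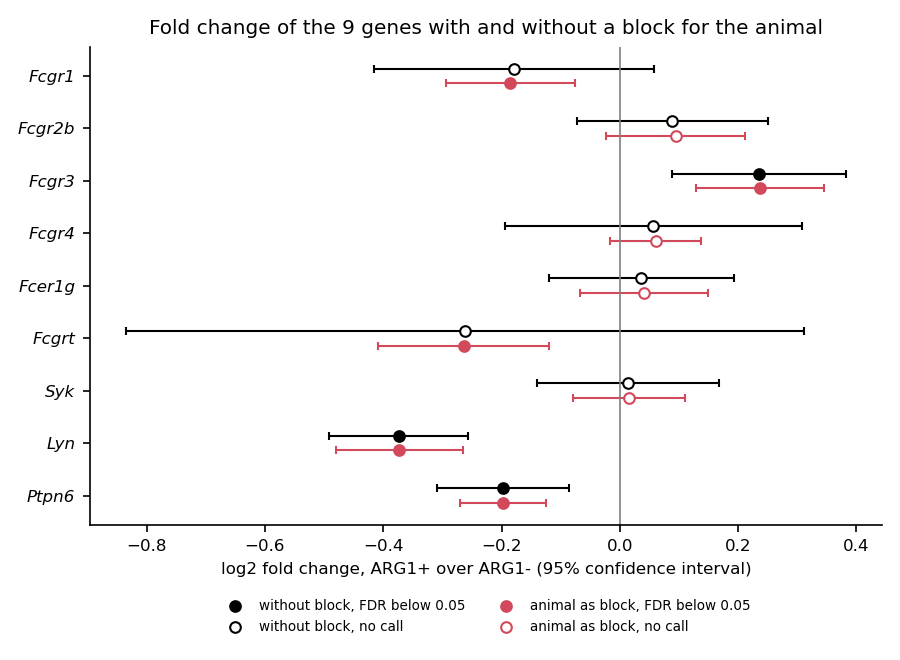
Log2 fold change of ARG1+ over ARG1- (x axis) for the 9 genes with 95% confidence intervals, without a block (black) and with the animal as a block (red); filled points are called at an FDR below 0.05. The block narrows the intervals of *Fcgr1*, *Fcgr4* and *Fcgrt* most visibly, and *Fcgr1* and *Fcgrt* become calls with nearly the same fold change.

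*Lyn* (chromosome 4, 3678115 to 3813122, forward strand) encodes a *Src* family kinase that starts both activating and inhibitory receptor signals in myeloid cells. In ARG1+ cells it stood at 308, 311, 295, 316 and 329 CPM in m2, m6, m234, m235 and m236. In ARG1- cells the same animals gave 413, 391, 435, 398 and 384 CPM. The highest ARG1+ library, that of m236, lay below the lowest ARG1- library, which was also that of m236, and the level was lower in ARG1+ cells of 5 of 5 animals.

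*Lyn* averaged 312 ± 12.3 CPM with and 404 ± 20.5 CPM without reporter signal (SD, n = 5 each). The difference was -0.37 on the log2 scale (standard error 0.0540, FDR 0.00143 in edgeR's test), a change of -22.8% with a 95% confidence interval of -28.9% to -16.3%. By p value it ranked 153 of the 13740 genes. A 2-sided exact permutation test of the 10 libraries gave p = 0.00794, the smallest that 5 against 5 allow. This test does not use the pairing by animal. An exact sign-flip test of the 5 pairs, which was not run for single genes, cannot go below 0.0625. With each library or each animal left out in turn, *Lyn* was called in 15 of 15 fits (log2 fold change -0.41 to -0.33).

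A limit of the *Lyn* value is shared sequence. Of its stretches of 50 bases, 15.7% also occurred in the pseudogene *Gm11787*, which was itself at 13.6 to 21.6 CPM, with means of 15.4 CPM in the ARG1+ group and 19.1 CPM in the other. In addition, 7.16% of the exon bases of *Lyn* lie opposite the antisense gene *Gm26857* in the annotation, and use of the strand in counting is not stated in the methods.

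*Ptpn6* (chromosome 6, 124720707 to 124738714, reverse strand) encodes SHP-1, which removes phosphate from tyrosines and dampens signals of immune receptors. Its ARG1+ libraries held 340, 320, 312, 318 and 303 CPM in m2, m6, m234, m235 and m236. The ARG1- libraries held 387, 368, 355, 360 and 356 CPM in the same order. As for *Lyn*, the groups did not overlap and the level was lower in ARG1+ cells of 5 of 5 animals. These 2 were the only ones of the 9 genes without overlap. Across all tested genes, 11.3% had groups without overlap, 5.20% had ARG1+ libraries that all lay below the ARG1- libraries, and 21.0% were lower in 5 of 5 animals.

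The group means of *Ptpn6* were 318 ± 13.6 and 365 ± 13.4 CPM (SD, n = 5 each), and the difference was -0.20 on the log2 scale (standard error 0.0513, FDR 0.0272 with edgeR). This is a change of -12.8% (95% confidence interval -19.3% to -5.77%). The differences within animals were nearly equal, from -0.23 to -0.18 on the log2 scale. The call was lost when the ARG1- library of m2 or m6 was left out, or the ARG1+ one of m236 or m6, and without the pair from m236, m235, m6 or m2 (FDR 0.0596 to 0.12), and without the filter on low counts (FDR 0.127). With the animal as a block the FDR was 0.00127, and *Ptpn6* was called in 5 of 5 fits with an animal left out. Of the exon bases of *Ptpn6*, 7.48% lie opposite the antisense gene *Gm20531*, which had at most 0.353 CPM.

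*Syk* (chromosome 13, 52583173 to 52648792, forward strand) encodes the kinase that binds phosphorylated ITAMs. It ran from 474 to 552 CPM in ARG1+ and from 465 to 569 CPM in ARG1- libraries, with medians of 493 and 482 CPM. The groups overlapped almost fully, and the level was higher in ARG1+ cells of 2 animals and lower in 3. The log2 fold change of *Syk* was 0.01 (95% confidence interval -0.14 to 0.17, edgeR FDR 0.922), and its sign turned with some libraries left out. With the animal as a block, the log2 fold change was 0.02 (95% confidence interval -0.08 to 0.11, edgeR FDR 0.814).

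Beside these kinase and phosphatase values, markers of other cell types also differed between the groups. Of 7 monocyte markers, 5 were lower in ARG1+ cells (6 with the block), and their summed level was 1162 to 1820 CPM in ARG1+ and 2190 to 3224 CPM in ARG1- libraries. Of 7 tested dendritic cell markers, 6 were lower, with the sum of the list at 11.6 to 27.7 CPM against 25.3 to 48.2 CPM. The other tested marker, *Clec9a*, was the most abundant of the list and was not called. It was at 13.9 ± 5.68 against 11.8 ± 3.66 CPM (log2 fold change 0.28, edgeR FDR 0.547). None of 8 microglia markers was called, although each had a fold change below 0 and 6 were called lower with the animal as a block. Their sum was 765 to 1180 CPM against 836 to 3132 CPM, where the 3132 CPM were those of m234. The next highest ARG1- library, that of m2, was at 1509 CPM. Of 4 tested B and plasma cell genes, *Ighm*, *Igkc* and *Jchain* were lower, and so was *Kit*, the 1 mast cell and basophil gene tested (log2 fold change -1.74). Of the 9 genes of that list, 7 had no count in any library and *Gata2* reached at most 0.286 CPM, so that the list rests on *Kit* alone. Of 4 tested neutrophil genes, *S100a9* was lower (0.162 to 0.356 CPM against 0.471 to 6.28 CPM, log2 fold change -3.40, FDR 0.00977 with edgeR), and with the block *Csf3r* was lower too and *Mmp8* (log2 fold change 0.84) and *S100a8* were higher. The part of cells with any of these markers in the values of *Lyn* and *Ptpn6* was not tested.

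*Fcgr3* (chromosome 1, 171051174 to 171064935, reverse strand) encodes an activating receptor of low affinity for IgG that most myeloid cells carry. The ARG1+ libraries of m2, m6, m234, m235 and m236 held 872, 795, 765, 865 and 777 CPM. Their ARG1- counterparts held 639, 693, 654, 766 and 708 CPM. The lowest ARG1+ library (m234, 765 CPM) lay just under the highest ARG1- library (m235, 766 CPM), so that the groups touched, but within each of the 5 animals the ARG1+ library was higher. Of all tested genes, 20.0% were higher in 5 of 5 animals.

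The mean level of *Fcgr3* was 815 ± 50.3 CPM against 692 ± 50.2 CPM (SD, n = 5 each), and the difference was 0.24 on the log2 scale (standard error 0.0674, edgeR FDR 0.0396). This is a change of 17.7% (95% confidence interval 6.35% to 30.4%). The exact permutation test, 2-sided and again without use of the pairing, gave p = 0.0159. The call was lost in 12 of the 15 fits that left out a library or an animal (FDR up to 0.193). The exceptions were the fits without the ARG1- library of m235, without the ARG1+ library of m234 and without both libraries of m235. It was also lost with library totals in place of TMM factors (FDR 0.0599) and without the filter on low counts (FDR 0.0718). With the block, *Fcgr3* was called (FDR 0.00439), also in 5 of 5 fits with an animal left out. Among 8 macrophage markers, *Cd68* and *Mertk* were called higher in ARG1+ cells and none lower (5 higher and none lower with the block). The fold changes of 3 of the 8, *C1qa*, *C1qb* and *C1qc*, were below 0. The summed level was 14116 to 30454 against 12376 to 24001 CPM, most of it from *Apoe* (edgeR FDR 0.238, and 6.32e-04 with the block). Of 3 tested markers of border-associated macrophages, *Mrc1* and *Pf4* were higher, and with the block *Siglec1* as well. The other genes of this list of 7, *Cbr2*, *Cd163*, *Folr2* and *Lyve1*, were too low to be tested (at most 1.63, 0.131, 0.278 and 0.229 CPM). The summed level of the list was 157 to 322 against 112 to 205 CPM, most of it from *Siglec1* (mean 151 CPM). The part of cells with any of these markers in the value of *Fcgr3* was not tested.

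*Fcgr2b* (chromosome 1, 170958617 to 170976547, reverse strand) is the gene of the inhibitory receptor whose ITIM is printed above. Its level ran from 945 to 1033 CPM in ARG1+ libraries and from 776 to 1018 CPM in ARG1- libraries. The lowest value was in the ARG1- library of m234, the library with the fewest counts, where *Fcgr2b* still had 6591. That library also had the highest sum of microglia markers (3132 CPM), and its part in this value was not tested. The ARG1+ libraries of 3 animals were higher and those of 2 were lower. The log2 fold change of *Fcgr2b* was 0.09 (95% confidence interval -0.07 to 0.25, edgeR FDR 0.449), which leaves room for a change between -4.86% and 18.9%. With the animal as a block, the log2 fold change was 0.09 (95% confidence interval -0.02 to 0.21, edgeR FDR 0.193).

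*Fcgr1* (chromosome 3, 96282909 to 96293969, reverse strand) encodes the high-affinity IgG receptor CD64, which interferon-gamma induces in macrophages. In ARG1+ cells its level was 289, 295, 290, 408 and 289 CPM in m2, m6, m234, m235 and m236. In ARG1- cells it was 349, 329, 371, 415 and 315 CPM. The ARG1+ library of m235 stood far above the other ARG1+ libraries, which lay between 289 and 295 CPM, yet within each animal the ARG1+ library was the lower one.

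Without the block, the log2 fold change of *Fcgr1* was -0.18 (standard error 0.109, edgeR FDR 0.293). With the animal as a block it was -0.18 (standard error 0.0486, FDR 0.0150). Without the block it was called when the ARG1+ library of m235 was left out (log2 fold change -0.29, FDR 0.0370) or both libraries of m235 (-0.22, FDR 0.0478), and in no other such fit. With the block it was lost when m2 was left out (FDR 0.0738).

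*Fcgr4* (chromosome 1, 171018920 to 171029761, forward strand) encodes an activating receptor of intermediate affinity found on monocytes and macrophages. The ARG1+ libraries of m2, m6, m234, m235 and m236 held 228, 253, 211, 301 and 258 CPM. The ARG1- libraries held 206, 251, 202, 291 and 252 CPM in that order. Both groups put the animals in the same order, from m234 as the lowest to m235 as the highest. The difference within animals was above 0 in 5 of 5 but small, from 0.01 to 0.15 on the log2 scale. No fit called *Fcgr4* (log2 fold change 0.06, 95% confidence interval -0.19 to 0.31, edgeR FDR 0.779, and FDR 0.204 with the block). Its sign turned without the ARG1+ library of m235 (log2 fold change -0.02) and was above 0 in the other 14 fits with a library or animal left out.

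*Fcer1g* (chromosome 1, 171229572 to 171234365, reverse strand) encodes the ITAM chain that the activating receptors need at the cell surface. It ran from 472 to 522 CPM in ARG1+ libraries, inside the range of 433 to 533 CPM of the ARG1- libraries. Its log2 fold change was 0.04 (95% confidence interval -0.12 to 0.19, edgeR FDR 0.773), and 3 animals were higher and 2 lower in ARG1+ cells. The sign of this value turned with library totals in place of TMM factors. With the animal as a block, the log2 fold change of *Fcer1g* was 0.04 (95% confidence interval -0.07 to 0.15, edgeR FDR 0.548).

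*Fcgrt* (chromosome 7, 45092990 to 45103851, reverse strand) was by far the least abundant of the 9 genes. Its ARG1+ libraries held 16.5, 18.3, 20.9, 9.07 and 22.4 CPM in m2, m6, m234, m235 and m236. The ARG1- libraries of the same animals held 20.2, 19.9, 29.7, 10.98 and 25.4 CPM. Animal m235 was low in both groups, and within each animal the ARG1+ library was lower. The log2 fold change was -0.26 (standard error 0.263, edgeR FDR 0.539) without the block and -0.26 (standard error 0.0650, FDR 0.0110) with it. Without the block, *Fcgrt* was called in 0 of the 15 fits that dropped a library or an animal. Its log2 fold change ran from -0.10 without the ARG1+ library of m235 to -0.42 without the ARG1- library of m235. With the block it was called in 5 of 5 fits that left out an animal (FDR 0.0123 to 0.0464).

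For 6 of these genes, the animal took a larger share of the spread in level than the sort did. The sum of squares of log2 CPM over the 10 libraries was split into a share for the animal, a share for ARG1+ against ARG1- and the rest, as a description without a test. The animal took 95.9% for *Fcgr4*, 90.6% for *Fcgrt*, 78.2% for *Syk*, 67.7% for *Fcgr1* and 63.9% for *Fcer1g*. Over all tested genes the median share of the animal was 51.3%, with quartiles at 32.9% and 70.0%.

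*Lyn*, *Ptpn6* and *Fcgr3* stood at the other end. The sort took 91.2% of the spread of *Lyn*, 79.1% of that of *Ptpn6* and 65.4% of that of *Fcgr3*, where the median over all tested genes was 20.2%. The mean level of *Lyn* in the highest animal was 1.03 times that in the lowest, whereas this ratio was 1.43 for *Fcgr4*, 1.36 for *Fcgr1* and 2.49 for *Fcgrt*.

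**Figure D3:**
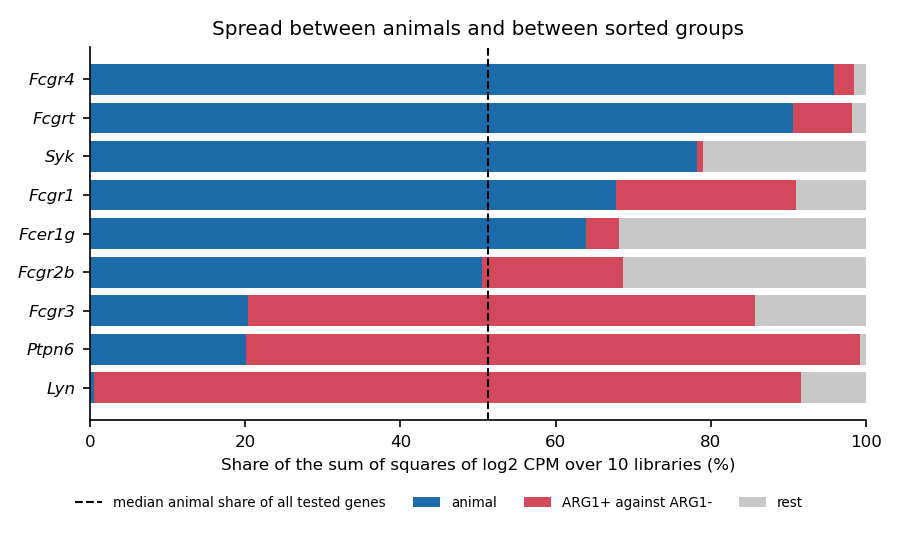
Share of the sum of squares of log2 CPM over the 10 libraries (x axis, percent) taken by the animal (blue), by ARG1+ against ARG1- (red) and by the rest (grey) for each of the 9 genes (y axis). The dashed line is the median animal share of all tested genes, 51.3%; *Fcgr4* and *Fcgrt* are almost wholly blue and *Lyn* is almost wholly red.

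The same animal was often the highest. The mean of the 2 libraries of m235 was the highest of the 5 animals for 6 of the 9 genes, namely *Fcgr1*, *Fcgr2b*, *Fcgr3*, *Fcgr4*, *Fcer1g* and *Syk*, and the lowest for *Fcgrt*. Over all tested genes, m235 was the highest animal for 24.7%. The labels give nothing by which m235 differs from the other 4 animals, and a cause was not tested.

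The promoters of *Fcgr1* and *Fcgr4* are shown because these receptors had the widest range between animals among the 4 *Fcgr* genes. All 4 were highest in m235, so that this does not set the pair apart. The 250 bases before the start of each were taken from RefSeq on GRCm38.p6, where a window was given for 8 of the 9 genes, and *Lyn* was the ninth. The windows are chr3:96293970-96294219 on the reverse strand for *Fcgr1* and chr1:171018676-171018925 on the forward strand for *Fcgr4*. Capitals mark matches on either strand to GAGGAA, the core that PU.1 binds in myeloid genes, to TTCNNNGAA, the palindrome that STAT dimers bind, and to a pair of GAAA with 2 bases between them, the repeat that interferon regulatory factors bind. No matches overlap.
Fcgr1: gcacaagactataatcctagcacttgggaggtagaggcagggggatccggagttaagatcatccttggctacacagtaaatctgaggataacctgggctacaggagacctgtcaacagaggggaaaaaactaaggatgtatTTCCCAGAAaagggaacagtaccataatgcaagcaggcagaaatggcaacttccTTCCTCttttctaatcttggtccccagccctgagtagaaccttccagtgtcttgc
Fcgr4: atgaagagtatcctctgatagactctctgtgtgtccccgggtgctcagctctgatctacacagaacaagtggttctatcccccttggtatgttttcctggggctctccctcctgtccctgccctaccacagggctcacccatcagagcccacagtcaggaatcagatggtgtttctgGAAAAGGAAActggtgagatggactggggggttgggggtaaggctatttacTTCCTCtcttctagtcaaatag
The *Fcgr1* window held 1 match to TTCNNNGAA and 1 to GAGGAA, and the *Fcgr4* window held 1 match to the GAAA pair and 1 to GAGGAA. Of 32851 promoter windows of the same length, 23.3% held GAGGAA, 7.02% held TTCNNNGAA and 2.98% held the GAAA pair. The 8 genes had 10 windows, with 2 each for *Fcgr3* and *Syk*. Counted by gene with a match in any of its windows, GAGGAA occurred in 4, TTCNNNGAA in 1 and the GAAA pair in 1. *Syk* held GAGGAA in only 1 of its 2 windows. The shares above are by window and are thus not the same measure. A match is a description of the letters and not evidence of binding.

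*Fcgr2b*, *Fcgr4*, *Fcgr3* and *Fcer1g* lie together on chromosome 1, within 276 kb from 170958617 to 171234365 of GRCm38, among 17 genes of which 6 were tested. *Fcgr3* was called and *Fcgr2b*, *Fcgr4* and *Fcer1g* were not, with or without the block. Whether receptors differed from each other in their change was tested with ratios.

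Ratios within a library do not depend on the library size, and ask whether the balance of activating to inhibitory receptor transcripts differed between the groups. For this, CPM was divided by the merged exon length of each gene in kilobases. On this per-length scale the order in ARG1+ cells was *Fcer1g* (659 ± 26.6 CPM per kilobase), *Fcgr3* (605 ± 37.4), *Fcgr2b* (259 ± 8.92), *Fcgr4* (199 ± 27.2), *Ptpn6* (122 ± 5.23), *Fcgr1* (121 ± 20.2), *Lyn* (90.0 ± 3.56), *Syk* (83.9 ± 5.17) and *Fcgrt* (9.79 ± 2.92; SD, n = 5 each). The order of the means was the same in ARG1- cells. *Ptpn6* and *Fcgr1* kept it in 7 and *Lyn* and *Syk* in 8 of the 10 libraries. On these lengths these neighbors are thus not set apart beyond their spread, while the other neighbors kept it in 10 of 10. The lengths include sequence shared with other genes (12.3% of the 50-base stretches of *Fcgr3*, 6.63% of *Fcgr2b* and 15.7% of *Lyn*). Reads from it may not have been counted for these genes, and the order without it was not tested.

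The summed level of *Fcgr1*, *Fcgr3* and *Fcgr4* per length was 3.47, 3.44, 3.42, 4.03 and 3.53 times that of *Fcgr2b* in the ARG1+ libraries of m2, m6, m234, m235 and m236. In the ARG1- libraries it was 3.17, 3.47, 3.88, 3.59 and 3.28 times. The ratio was higher in ARG1+ cells of 3 animals and lower in 2, and the groups overlapped. The mean difference was 0.04 on the log2 scale, with differences within animals of -0.18 to 0.17 (2-sided exact permutation test, p = 0.571, adjusted p = 0.714 over 5 ratios). A difference was thus not detectable against this spread.

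Of the single receptors over *Fcgr2b*, the ratio of *Fcgr3* had a mean log2 difference of 0.14 (exact permutation p = 0.0317, adjusted p = 0.0794), and it was higher in ARG1+ cells of 4 of 5 animals. That of *Fcgr1* had a mean difference of -0.28 (exact permutation p = 0.0952, adjusted p = 0.159), lower in 4 of 5. For *Fcgr4* it was -0.03 (exact permutation p = 0.762, adjusted p = 0.762), lower in 3 of 5. The ratio of *Fcer1g* to the sum of the 4 *Fcgr* genes lay between 0.538 and 0.576 in ARG1+ and between 0.573 and 0.639 in ARG1- libraries, and was lower in ARG1+ cells of 5 of 5 animals (log2 difference -0.09, exact permutation p = 0.0238, adjusted p = 0.0794), and this difference was -0.06 without division by length. No ratio passed 0.05 after adjustment. Within animals, an exact sign-flip test as the replicate block cannot go below 0.0625 with 5 pairs, and gave 0.0625 for the *Fcer1g* ratio, 0.125 for those of *Fcgr1* and *Fcgr3*, 0.562 for that of *Fcgr4* and 0.625 for the sum.

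**Figure D4:**
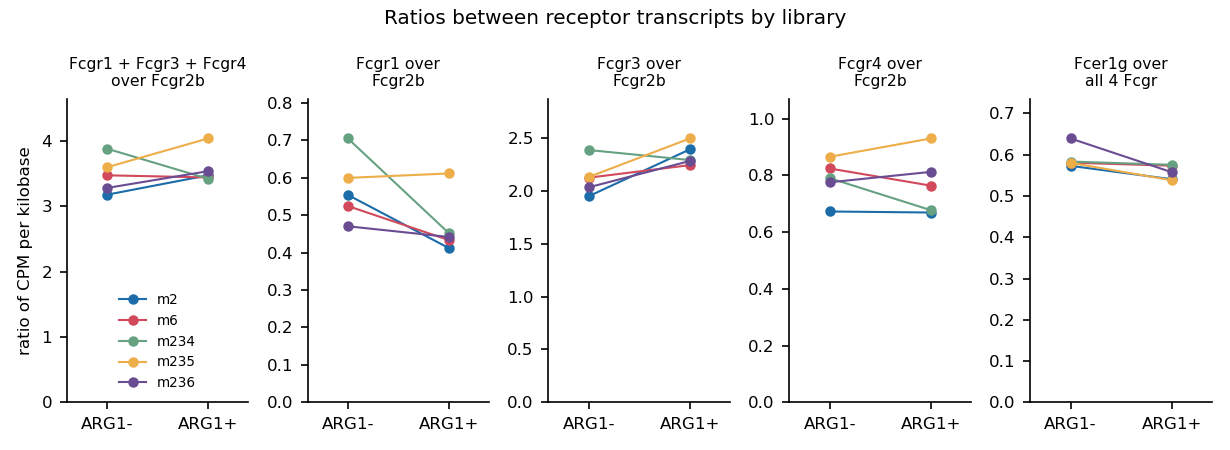
Ratios of CPM per kilobase between receptor transcripts (y axes, from 0) in ARG1- and ARG1+ libraries (x axes), with the 2 libraries of each animal joined by a line. The first panel, activating receptors over *Fcgr2b*, has lines in both directions, and the last, *Fcer1g* over the 4 *Fcgr* genes, falls in all 5 animals.

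Genes whose pattern over the 10 libraries was most like that of a receptor were found by the root mean square difference of log2 CPM after centring each gene on its mean. For *Fcgr1* these were *Znhit3* (0.06), *Tdrd7* (0.07) and *Dck* (0.07), where the median over all tested genes was 0.27. For *Fcgr2b* they were *Tsg101*, *Ndufb8* and *Csf2rb2* (each 0.04, median 0.21). *Csf2rb2* encodes a receptor subunit for interleukin-3. For *Fcgr3* they were *Rtn3*, *Smim15* and *Tmem106a* (each 0.05, median 0.23), and for *Fcgr4* they were *Ift57* (0.06), *Dusp18* (0.07) and *Phb* (0.07, median 0.26). No other Fc receptor or kinase of the 9 was among them. These genes were picked as the nearest of all tested genes, so that a distance below the median follows from the choice. Absence from so short a list tells little about the 9 genes.

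The wider pathway was read from 8 lists with 132 genes, of which 129 had a row and 113 were tested. Of these 113, 6 were higher and 14 were lower in ARG1+ cells (5.31% and 12.4%, beside 6.82% and 6.15% of all tested genes), and their median log2 fold change was -0.07. With the block, 18 were higher and 37 lower, 48.7% of the lists beside 35.1% of all tested genes. Both limits, FDR and an absolute log2 fold change above 1, were passed by *Cd22* and *Cd72*. Genes of the lists named below beyond the most abundant, the most significant and a preset few were named after their values were seen.

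**Figure D5:**
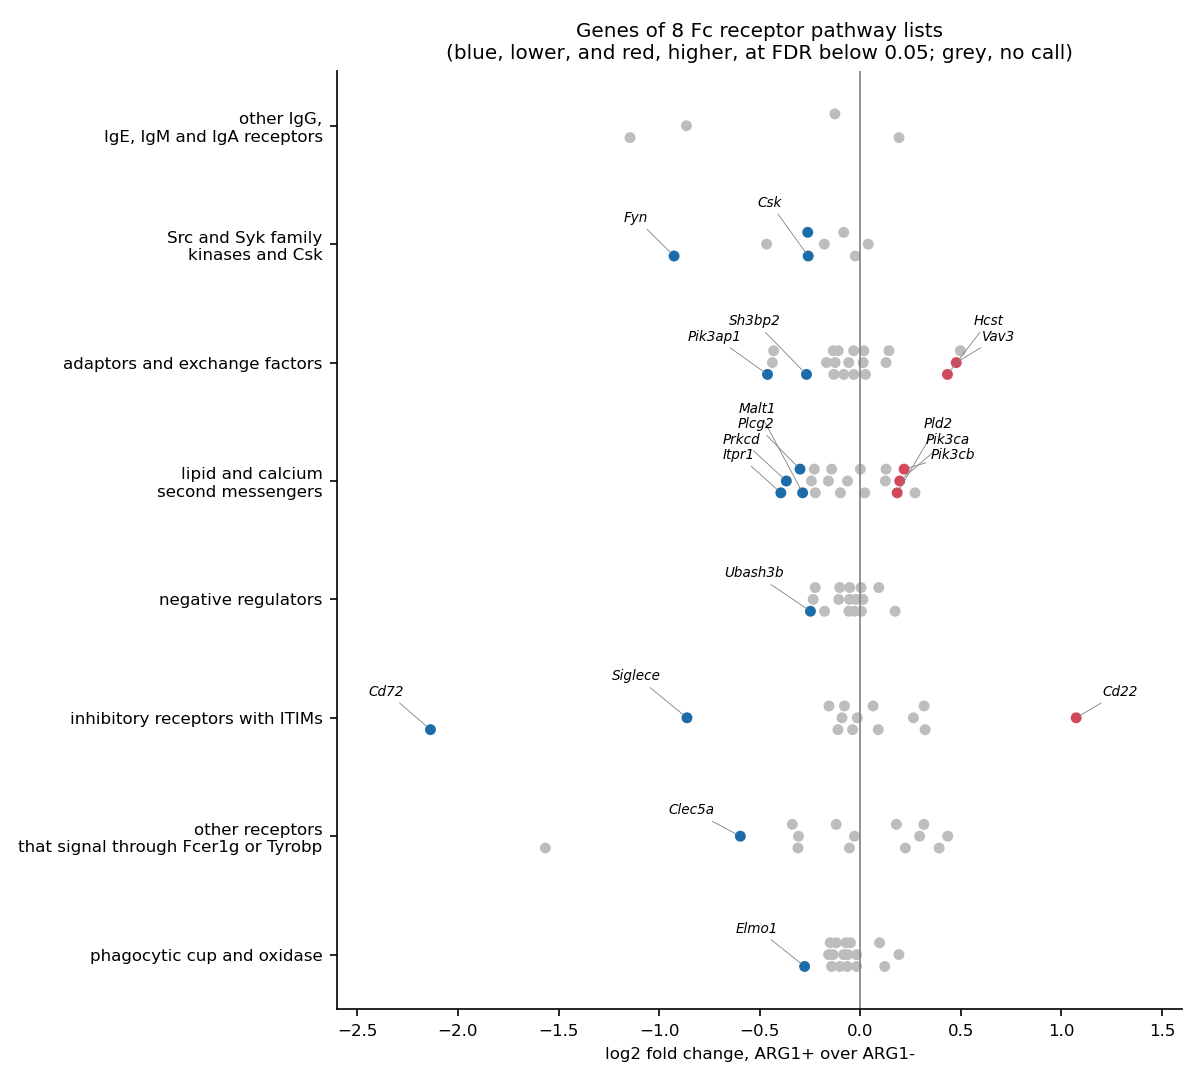
Log2 fold change of ARG1+ over ARG1- (x axis) of the 113 tested genes in 8 pathway lists (y axis, 1 row per list; the height within a row has no meaning). Genes called at an FDR below 0.05 are blue where lower and red where higher, with names for all but 1; 14 are blue, 6 are red, and *Cd72* and *Cd22* lie farthest out among the named genes.

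Among 8 tested kinases of the *Src*, *Syk* and *Tec* families and *Csk*, 3 were lower and none higher (4 lower with the block). *Csk*, which phosphorylates the inhibitory tail of *Src* family kinases, was at 167 ± 8.93 against 200.5 ± 10.9 CPM (SD, n = 5 each; log2 fold change -0.26, edgeR FDR 0.0123), and *Fyn*, a *Src* family kinase, had a log2 fold change of -0.93 (FDR 0.0214). *Fgr* was at 137 ± 21.6 against 154 ± 18.7 CPM (FDR 0.310, and called lower with the block at FDR 0.0233) and *Btk* at 54.9 ± 2.07 against 56.0 ± 4.67 CPM (FDR 0.825). The ARG1+ libraries of *Csk* lay below all ARG1- libraries, as those of *Lyn* did. The median of this list was -0.22.

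Of 21 adaptors and exchange factors, 2 were higher and 2 lower (2 and 7 with the block). *Tyrobp*, the ITAM adaptor that pairs with TREM2 and related receptors, was the most abundant at 568 ± 41.0 against 561 ± 18.9 CPM and did not pass the test (log2 fold change 0.02, edgeR FDR 0.873). *Pik3ap1*, an adaptor that links receptors to PI3 kinase, was lower (256 ± 8.81 against 353 ± 28.9 CPM, log2 fold change -0.46, FDR 0.00105), and so was *Sh3bp2* (-0.27, FDR 0.0282). *Hcst*, the adaptor DAP10, and *Vav3*, a guanine nucleotide exchange factor, were higher (0.43 and 0.48, FDR 0.0240 for each). *Vav1* was at 309 ± 12.8 against 338 ± 13.1 CPM (log2 fold change -0.13, FDR 0.110, and FDR 0.0126 with the block).

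Of 19 genes of lipid and calcium second messengers, 3 were higher and 4 lower (5 and 8 with the block). *Plcg2*, the phospholipase downstream of SYK in myeloid cells, was lower at 230 ± 17.1 against 283 ± 27.3 CPM (log2 fold change -0.30, edgeR FDR 0.0256). *Malt1*, which with CARD9 and BCL10 leads to NF-kappaB, was lower as well (-0.29, FDR 0.0181), as were *Prkcd*, the most abundant gene of the list (-0.37, FDR 0.0373), and the calcium channel gene *Itpr1* (-0.39, FDR 0.0221). The PI3 kinase genes *Pik3ca* (0.20, FDR 0.0190) and *Pik3cb* (0.22, FDR 0.0227) and the phospholipase gene *Pld2* (0.18, FDR 0.0442) were higher.

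Of 16 negative regulators, *Ubash3b*, a phosphatase that acts on SYK family kinases, was lower (log2 fold change -0.25, edgeR FDR 0.0349) and none was higher (4 lower and 1 higher with the block). *Inpp5d*, which encodes the phosphatase SHIP-1 that FCGR2B recruits, was at 346 ± 21.2 against 372 ± 34.6 CPM (log2 fold change -0.10, FDR 0.373). The most abundant, *Ptprc*, which encodes CD45, was at 623 ± 37.5 against 728 ± 70.3 CPM (FDR 0.0690, and 0.00192 with the block).

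The largest called changes lay among the 14 tested receptors with ITIMs, of which 1 was higher and 2 lower (4 and 2 with the block). *Cd22*, an ITIM receptor for sialic acid best known from B cells and also found on microglia, was higher, with 48.8 to 67.4 CPM in ARG1+ and 23.1 to 38.3 CPM in ARG1- libraries (log2 fold change 1.07, standard error 0.128, edgeR FDR 4.78e-04). *Cd72*, another ITIM receptor of B cells and some myeloid cells, was lower, with 5.55 to 17.5 CPM against 27.7 to 78.4 CPM (-2.14, standard error 0.371, FDR 0.00393). *Siglece*, a sialic acid receptor of myeloid cells that recruits SHP-1, was lower too (13.3 ± 1.75 against 24.0 ± 2.64 CPM, -0.86, FDR 4.64e-04). Each of the 3 had the same direction in 5 of 5 animals and groups that did not overlap. Of the exon bases of *Cd72*, 51.4% lie opposite *Tesk1* (40.7 to 57.4 CPM). *Sirpa* was the most abundant gene of this list (995 ± 68.3 against 935 ± 73.7 CPM, FDR 0.433), and *Pirb* was at 383 ± 28.0 against 366 ± 42.3 CPM (FDR 0.643).

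Of 14 other receptors that signal through *Fcer1g* or *Tyrobp*, *Clec5a*, a TYROBP-linked lectin of monocytes, was lower (148 ± 20.0 against 224 ± 21.6 CPM, log2 fold change -0.60, edgeR FDR 0.00274) and none was higher. With the block, 5 were higher and 4 lower, and the 5 were *Trem2*, *Clec4d*, *Cd300lb*, *Cd300ld* and *Pira2*, with log2 fold changes of 0.22 to 0.44 without the block. *Clec4e*, which encodes the FCER1G-linked lectin Mincle and was the most abundant, was at 455 ± 54.6 against 564 ± 128 CPM (FDR 0.172, and 0.00815 with the block). Of 17 genes of the phagocytic cup and the oxidase, *Elmo1*, which helps to activate Rac, was lower (-0.28, FDR 0.0232), and with the block 1 was higher and 6 lower. *Cybb*, the catalytic subunit of the phagocyte oxidase, was the most abundant of all and did not pass the test without the block (2176 ± 116 against 1904 ± 238 CPM, log2 fold change 0.19, FDR 0.164, and 0.0300 with the block).

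Of 13 other receptors for antibody, 6 had no count in any library, 4 were tested and none was called (2 lower with the block). *Fcrl1* had the lowest FDR (0.652 ± 0.315 against 1.56 ± 0.902 CPM, edgeR FDR 0.0927, and 0.00414 with the block). *Fcrls*, a microglial gene of the Fc receptor-like family, was the most abundant and spread widely, from 7.22 to 39.9 CPM in ARG1+ and from 11.2 to 93.1 CPM in ARG1- libraries (FDR 0.387, and 0.00771 with the block). *Trim21*, the cytosolic antibody receptor, had a log2 fold change of -0.13 (FDR 0.644).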

How the data were processed

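The deposited table holds whole read counts per gene without normalization. The authors aligned single-end 50-base reads from stranded libraries to GRCm38 with STAR (2.7.10b in the submitters' processing notes, which also name Picard), and counted them over transcripts of Ensembl release 100 with summarizeOverlaps in Union mode, summed to genes. Use of the strand in counting is not stated. Of 111 genes with no base unique to 1 GENCODE M21 basic transcript, 24 had over 1000 counts, so that reads over several transcripts of a gene were counted at least in part. No sample column was left out.

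A gene entered the test at a CPM over 1 in 3 or more libraries, in edgeR 4.0.16 in R 4.3.3 (TMM factors, no block, FDR below 0.05). Alternatives were the animal as a replicate block, DESeq2 1.42.0, limma-trend of limma 3.58.1, other library factors and filters, and libraries or animals left out. With the animal as a pairing label, residuals of same-animal libraries correlated at 0.331 to 0.647 across genes and those of other pairs at -0.333 to 0.0683, and genes are not independent replicates. Libraries of one group were not duplicates: their chi-square per degree of freedom was 14.2 to 57.1. Simulated counts with planted changes served to test the code. The smallest library has 8.40 counts per CPM. Per-length levels used merged exon lengths of GENCODE M21. Named are the 9 genes, in each list every gene past both limits or else the one with the lowest FDR, the most abundant one, a preset few, and the 3 genes most like each *Fcgr* gene. The genes and lists were chosen with earlier results of these data known. Some genes that this rule would name are not reported here.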

Additional observations from a re-analysis of the deposited data

Results flagged for a closer look

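Single libraries stood apart in 4 of the 28 groups of 5 values checked for an outlying library, where chance alone gives about 1 in 20, or 1.4. The ARG1+ library of m235 was high for *Fcgr1* (408 CPM), with a gap to the next library of 0.936 of the range of its group. The same library was high in the ratio of activating receptors to *Fcgr2b* (4.03, gap 0.800 of the range) and in that of *Fcgr1* to *Fcgr2b* (0.611, gap 0.766 of the range), which both contain *Fcgr1* and are not independent of it. The ARG1- library of m236 was high in the ratio of *Fcer1g* to the summed *Fcgr* genes (0.639, gap 0.836 of the range).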

How the results depend on the processing

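Of the 9 genes, *Lyn* was called lower under every alternative run except the added fold limit below, which no member passed. The number called higher (1) was 0 with library totals, without the filter on low counts and with an added limit of 1 on the absolute log2 fold change, and 0 to 1 when single libraries or animals were dropped. The number called lower (2) was 4 with the replicate block, 1 without the filter, 0 with the added fold limit, and 1 to 3 when single libraries or animals were dropped. Leaving out an animal under the block, an alternative chosen after seeing the data, gave 1 higher and 3 to 4 lower. DESeq2, limma-trend, RLE factors and a filter of 5 libraries gave 1 higher and 2 lower.

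In the pathway lists, the counts of 6 higher and 14 lower became 18 and 37 with the replicate block and 1 and 1 with the added fold limit. They were 1 to 10 and 4 to 15 when single libraries or animals were dropped. Under the block, dropping m2, m6, m234, m235 or m236 gave 14, 15, 24, 18 and 19 higher and 26, 28, 44, 25 and 32 lower. DESeq2 gave 7 and 21. The log2 difference of the ratio of activating to inhibitory receptors was 0.04 with the replicate block, close to 0 without division by length and -0.0022 to 0.10 when single libraries or animals were dropped, without passing 0.05. The depth of the ARG1- library of m234 limits the least abundant genes most.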
